A study of Mus musculus with 7 samples.

Results

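The 10 mouse genes described here encode basic leucine zipper (bZIP) proteins that pair or compete with JUNB: Atf2, Atf3, Jdp2, Batf, Batf3, Maf, Maff, Mafg, Mafk and Bach2. They were named by family, and a JUNB region was counted for a gene when the gene's start or end was the nearest end of any protein-coding gene to the region's summit, within 100 kb. Peaks of 4 JUNB lists that overlapped by at least 1 bp made 12655 regions, of which 11016 lay within 100 kb of a gene end and 31 belonged to these 10 genes among 21900. JUNB was mapped by CUT&RUN, in which a nuclease tethered to an antibody cuts out the DNA around the bound protein.

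The libraries used were 2 of siChst7 and 2 of siControl. All 4 came from mouse embryonic fibroblasts of the line iMGT-Myh6-eGFP-MEF, in which doxycycline (1 µg/mL) switches on the cardiac factors Mef2c, Gata4 and Tbx5 (MGT), and from day 1 after that induction. By these labels, cells of both groups had been induced towards cardiac reprogramming, and no uninduced cells stand beside them. The peak lists do not show whether reprogramming had begun. Chst7 encodes a sulfotransferase of chondroitin sulfate, and siControl is the control siRNA. The siChst7 group follows sample titles and treatment labels, since the transfection protocol lists siJunb, siH1f0 and siControl without siChst7. About 250000 cells per condition were frozen before use. The 3 IgG libraries (2 of siChst7 and 1 of siControl) were not analysed here, and antibody background is therefore unknown. The question is whether siChst7 changes where JUNB sits. Peak lists carry no expression, so neither fibroblast identity nor the level of Chst7 could be checked; regions called in all 4 lists stood near 3 of 10 fibroblast, 3 of 6 endothelial, 3 of 4 epithelial, 0 of 8 cardiomyocyte, 0 of 6 macrophage and 0 of 4 smooth muscle marker genes, against 8.32% of all genes. In every marker list, 0 genes had a region called only in siChst7, against 1.81% of all genes. Regions called only in siControl stood near 3 of 6 macrophage and 1 of 10 fibroblast markers, against 0.795% of all genes. They stood near 0 of 6 endothelial, 0 of 4 epithelial, 0 of 8 cardiomyocyte and 0 of 4 smooth muscle markers. The part of any of these cell types in the results below was not tested. Sample titles mark the replicates as biological (BiolRep) but do not say whether they came from separate cultures. The p-values measure only the spread between these libraries.

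A bZIP protein holds DNA with a basic region and dimerises through a leucine zipper, and the choice of partner sets the sequence that is bound. JUN proteins with FOS proteins favour the AP-1 site, and with ATF proteins the related cAMP response element (CRE). Small MAF proteins pair with CNC and BACH proteins on longer elements that contain an AP-1-like core. In fibroblasts, AP-1 is known as a keeper of the fibroblast programme and as a responder to serum and stress.

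A JUNB region covered the middle of the 3 listed starts of Maff, and another reached into the sequence just before the listed start of Mafk without covering that start, so these upstream sequences are shown. Each run below is the 250 bases before a listed start, 5′ to 3′ on the + strand of mm10 (RefSeq, GRCm38.p6). Capitals mark TGACGTCA, the CRE, in Maff and the reverse complement of TGCTGA, the opening bases of the Maf recognition element, in Mafk.

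Maff, chr15:79347270-79347519: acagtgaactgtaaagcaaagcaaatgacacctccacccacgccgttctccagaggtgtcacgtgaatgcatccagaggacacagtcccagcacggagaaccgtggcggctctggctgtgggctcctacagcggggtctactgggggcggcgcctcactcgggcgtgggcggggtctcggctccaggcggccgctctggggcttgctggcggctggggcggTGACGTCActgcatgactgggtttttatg
Mafk, chr5:139791286-139791535: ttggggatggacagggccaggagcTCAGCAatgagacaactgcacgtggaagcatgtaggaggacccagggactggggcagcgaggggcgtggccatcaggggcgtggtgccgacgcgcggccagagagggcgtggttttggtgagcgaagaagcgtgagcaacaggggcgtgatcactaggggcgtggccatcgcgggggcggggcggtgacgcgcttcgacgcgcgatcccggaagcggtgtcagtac

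Of the 10 genes, 8 had a region in any list, against 25.1% of all protein-coding genes. A region called in all 4 lists stood near 6 of the 10, namely Atf3, Jdp2, Maf, Maff, Mafk and Bach2, against 8.32% of all genes. The same 6 genes had a region in both siChst7 lists (11.3% of all genes) and in both siControl lists (11% of all genes). Bach2 had 6 such regions, Atf3 and Mafk 2 each, and Jdp2, Maf and Maff 1 each. Atf2 and Mafg had regions in 1 and 2 lists, and Batf and Batf3 had none in any list. The length of genome nearest to a gene ran from 11.9 kb for Mafg, 20.2 kb for Mafk and 22.4 kb for Maff to 307 kb for Bach2. Its median was 71.0 kb over the 10 genes, against 46.4 kb over all genes, and the counts were not corrected for it. The genes were chosen with earlier results of these lists known, so the counts describe them and support nothing further.

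Of the 31 regions, 16 were called in both siChst7 libraries and 14 in both siControl libraries. The shares over all 11016 regions near genes were 31.5% in siChst7 and 31% in siControl. All 4 libraries had 13 of the 31 (41.9%), against 21.9% of all regions near genes. A single library had 9 (29.0%), against 46.8% of all, and 5 of these 9 were in siChst7 replicate 1, whose list was the longest. Over all regions near genes, 3233 of the 5154 called in a single library were likewise in siChst7 replicate 1.

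**Figure D1:**
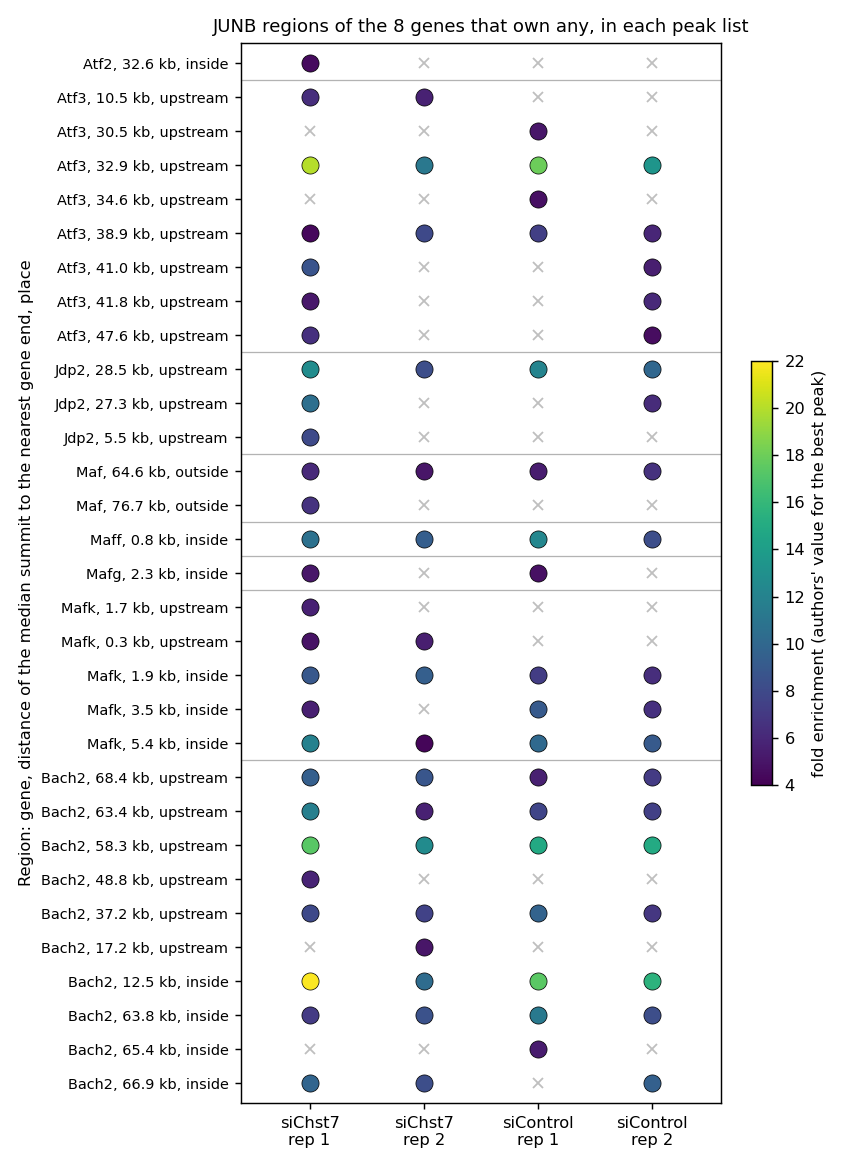
Regions of the 8 genes that own any (rows, with the distance of the median summit to the nearest gene end) in the siChst7 and siControl lists (columns). Circles are coloured by the authors' fold enrichment of the best peak and crosses mark lists without a peak; 13 rows are filled in all 4 columns, and the brightest are rows of Atf3 and Bach2.

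The background behind the fold enrichment is not stated in the sources used here. Values below are the fold enrichment that the authors' peak caller gave each peak, in replicate order within each group. They describe a peak within its own list. Ranks are by p-value within a list, where the best peak is near 0% and the list ends at 100%.

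Atf3, a stress-induced partner of JUN proteins (chromosome 1, 191170296 to 191183333), had 8 regions, all upstream of its start and none closer than 10.5 kb. They lay within 37.6 kb of genome, 10.5 to 47.6 kb from the start, and 0.434% of all genes had as many. The region 32.9 kb upstream (191215833 to 191216908) had folds of 20.0 and 11.2 in siChst7 libraries and 18.0 and 13.4 in siControl libraries. It stood in the best 10% of each list, at ranks of 2.05% and 8.53% in siChst7 and 3.63% and 7.84% in siControl. The groups overlap in fold, and within each group replicate 1 had the higher value.

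The region 38.9 kb upstream of Atf3 (191221791 to 191222541) had folds of 4.39 and 7.94 in siChst7 and 7.32 and 5.93 in siControl. Both siControl values fall between the siChst7 values. Regions 41.0, 41.8 and 47.6 kb upstream were in siChst7 replicate 1 and siControl replicate 2 alone, with folds of 5.19 to 8.65 in that siChst7 list and 4.63 to 6.08 in that siControl list. Such a pair crosses the siRNA groups. Regions 30.5 and 34.6 kb upstream were in siControl replicate 1 alone, with folds of 5.07 and 4.76.

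A region 10.5 kb upstream of Atf3 (191193502 to 191194177) was called in both siChst7 lists, with folds of 6.35 and 5.68, and in neither siControl list. Its ranks were 55.7% and 72.0%, in the lower part of each list. The siChst7-only pattern of this region was lost with 50% reciprocal overlap, with summit windows of 100 bp on each side, and when all lists were cut to the length of the shortest. The nearest other gene to all 8 regions was Fam71a, 29.1 kb away from this region and 66.1 kb from the farthest.

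Atf2, a CRE-binding partner of JUN that stress kinases activate (chromosome 2, 73816509 to 73892677), had 1 region, inside the gene and 32.6 kb from its start. It was called in siChst7 replicate 1 alone, with a fold of 4.55 and a rank of 94.7%, near the end of that list. Atf2 and Atf3 thus differed in number: siChst7 libraries had 6 and 3 regions of Atf3 and 1 and 0 of Atf2, and siControl libraries had 4 and 5 of Atf3 and 0 and 0 of Atf2.

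**Figure D2:**
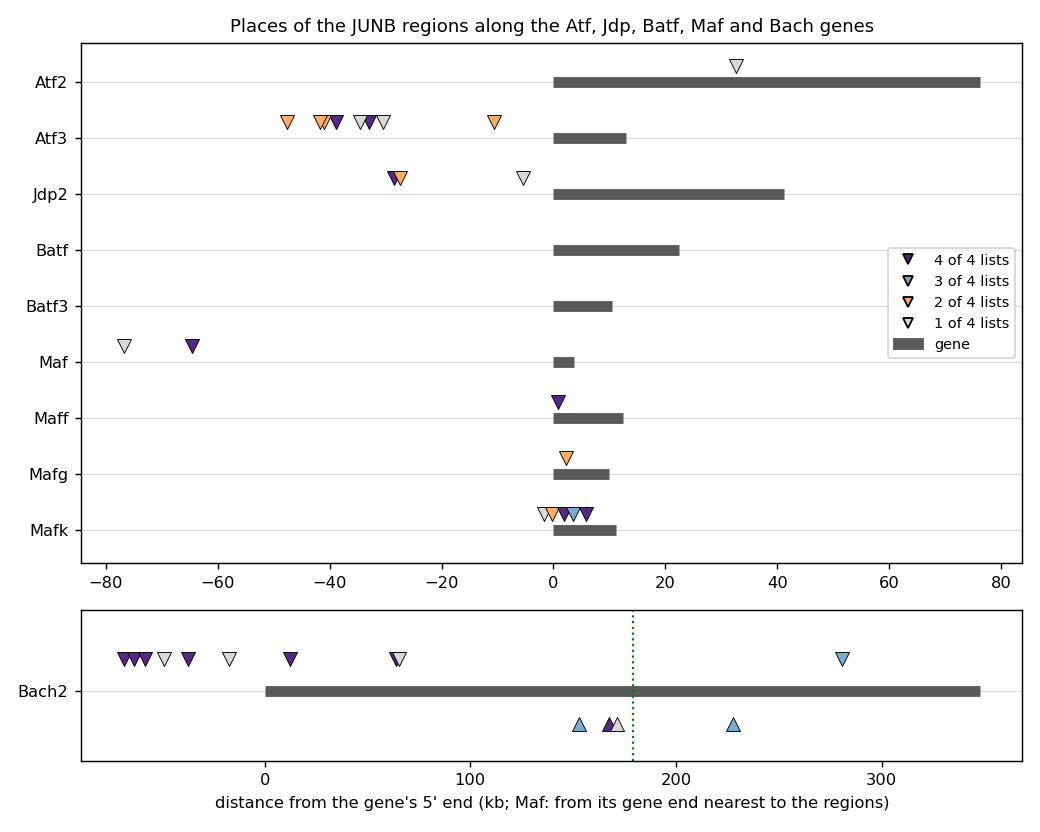
Median summits of regions (triangles above the line, coloured by the number of lists) along each gene (grey bar), in kb from the gene's 5′ end; for Maf, which has no listed start, from the end nearest to its regions. Triangles below the Bach2 line are the 4 regions in its body beyond 100 kb of either end, and the dotted line is its listed start; regions of Atf3, Jdp2 and Maf lie outside the gene and those of Maff and Mafg inside it.

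Jdp2, a JUN-binding repressor of AP-1 (chromosome 12, 85598656 to 85639878), had 3 regions, all upstream. That 28.5 kb upstream (85569892 to 85570900) had folds of 12.6 and 8.23 in siChst7 and 12.1 and 9.93 in siControl. The siControl values fall between the siChst7 values, and ranks ran from 10.3% to 28.8%. A neighbouring region 27.3 kb upstream was called in siChst7 replicate 1 (fold 10.5) and siControl replicate 2 (6.21), and the region 5.50 kb upstream in siChst7 replicate 1 alone (8.08). Fos, which encodes a JUN partner, was the next gene to the first of these, 92.9 kb away.

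Batf and Batf3 encode small bZIP proteins that pair with JUN proteins and are known best from lymphocytes and dendritic cells. Each lies near a gene that did own regions. Batf (85686720 to 85709087) starts 46.8 kb beyond Jdp2, and the nearest region, that 5.50 kb upstream of Jdp2, lay 93.6 kb from it. Batf3 (chromosome 1, 191098414 to 191108943) ends 61.4 kb before Atf3, and the nearest region lay 43.2 kb away and closer to Nsl1. A gene without a region can still have signal below a list's threshold.

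The large MAF gene Maf, whose protein carries an activation domain (chromosome 8, 115703253 to 115706894), had 2 regions, both beyond its higher-coordinate end. The region 64.6 kb away was called in all 4 lists, with folds of 6.04 and 4.99 in siChst7 and 5.42 and 6.58 in siControl. The groups overlap, and with ranks of 54.9% to 76.8% it was in the lower part of each list. It was no longer a region of all 4 lists with 50% reciprocal overlap, summit windows, a fold of at least 5 or lists of equal length. The next gene, Wwox, had its nearest end 419 kb away. A region 76.7 kb away was in siChst7 replicate 1 alone, with a fold of 6.63.

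The small MAF genes encode proteins without an activation domain, and their regions lay inside the genes or within 1.68 kb upstream of them. For Mafk (chromosome 5, 139791536 to 139802653) the 5 regions stood within 5.35 kb of a gene end, on 20.2 kb of nearest genome, and 1.84% of all genes had as many regions. The region 1.92 kb inside (139792928 to 139793968) had folds of 8.86 and 9.40 in siChst7 and 7.17 and 6.35 in siControl. Here both siChst7 values are above both siControl values, but folds of lists called separately do not measure binding strength.

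The region in the middle of Mafk (139796698 to 139798341) had folds of 11.9 and 4.25 in siChst7 and 10.1 and 9.03 in siControl for the best peak of each list. Its siChst7 replicate 2 peak was near the end of that list, at a rank of 91.4%. That peak was joined to the best siControl peaks only through the siChst7 replicate 1 peak, whose end it overlaps. It also overlaps a second siControl replicate 2 peak with a fold of 4.97. Mafk had 1 region in all 4 lists, in place of 2, with 50% reciprocal overlap, summit windows or a fold of at least 5. A region 3.45 kb inside (139794620 to 139795850) had a fold of 5.55 in siChst7 replicate 1, none in siChst7 replicate 2, and 9.05 and 6.50 in siControl. With lists of equal length, 50% reciprocal overlap or summit windows, 1 region of Mafk counted as called only in siControl.

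At the start of Mafk, a region 0.255 kb upstream (139790974 to 139791390) was called in both siChst7 lists, with folds of 4.85 and 5.54, and in neither siControl list. Summits lay 236 bp and 274 bp before the listed start. Ranks were 84.2% and 76.6%, and the region left the siChst7-only class under a fold of at least 5 and at equal list length. It overlaps the sequence shown for Mafk by 105 bp. The summits were 12.5 and 50.5 bp from the centre of the marked TGCTGA (positions −226 to −221 from the start), a sequence that 18.1% of protein-coding promoters hold. A region 1.68 kb upstream was in siChst7 replicate 1 alone, with a fold of 5.66.

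Maff (chromosome 15, 79346621 to 79359078) has 3 listed starts, and its only region (79347057 to 79348159) covered the middle of these. Folds were 10.6 and 9.33 in siChst7 and 12.3 and 8.29 in siControl, at ranks of 11.2% to 28.1%. The siChst7 values lie between the siControl values. Summits were 189 and 109 bp before the start in siChst7 and 160 and 124 bp before it in siControl, so that all 4 lay inside the sequence shown. Distances from summit to the centre of the marked TGACGTCA (positions −29 to −22) were 163.5 and 83.5 bp in siChst7 and 134.5 and 98.5 bp in siControl. In replicate 1 of both groups the peak reached past the start, and in replicate 2 of both it ended before it. With 50% reciprocal overlap the 4 peaks no longer made 1 region.

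Mafg (chromosome 11, 120625117 to 120634955) had 1 region, inside the gene and 2.31 kb from its start. It was in siChst7 replicate 1 with a fold of 5.08 and in siControl replicate 1 with 4.75, at ranks of 77.8% and 91.8%. No list of replicate 2 in either group had it. Of the genes in the Maf family, Maff and Mafk thus had a region of all 4 lists at or inside the gene, and Maf and Mafg had not.

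**Figure D3:**
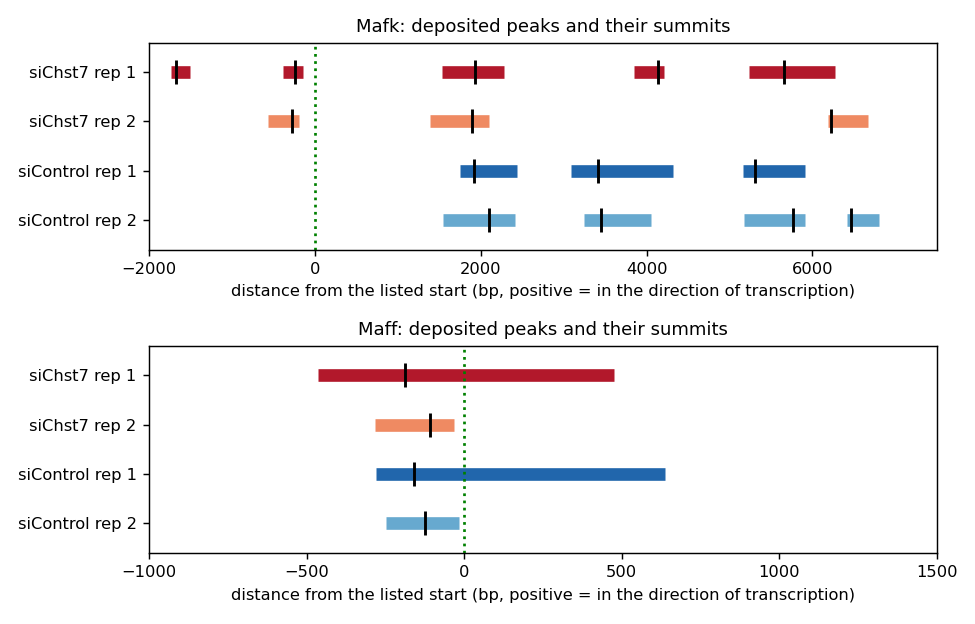
Deposited peaks (bars) and their summits (black ticks) at Mafk and at the middle listed start of Maff, in bp from that start (dotted line), with siChst7 libraries above siControl libraries. At Mafk both siChst7 lists have a peak just before the start and the siControl lists have none; at Maff all 4 summits lie 109 to 189 bp before the start.

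Among the 13 promoter sequences that RefSeq gives for 9 of the genes, from 250 bases before to 50 bases after a start, 0 held the AP-1 site TGANTCA on either strand, against 6.99% of 21263 protein-coding promoters. TGACGTCA stood in 1 of the 13 (Maff), against 2.23% of all, and TGCTGA in 2 (Mafk and Jdp2), against 18.1%. The full palindromic Maf recognition element was in 0 of the 13 and in 0 of all 21263. TGCTGA and TGANTCA both lie within that full element and overlap each other in it. These are matches of letters in a fixed window, and most regions of the genes lie outside it.

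Bach2 (chromosome 4, 32238413 to 32586109) encodes a BTB-domain repressor that pairs with small MAF proteins and is known best from lymphocytes. It had 10 regions, and 6 of them were in all 4 lists; 6 genes of 21900 had that many. Upstream of the gene start, 4 of these 6 lay 37.2 to 68.4 kb out, and 2 lay inside, 12.5 and 63.8 kb from the start. No other gene had the same number of regions as Bach2 in each library, which was 8 and 8 in siChst7 and 7 and 7 in siControl.

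The Bach2 region 12.5 kb inside (32249908 to 32251452) had folds of 21.9 and 10.3 in siChst7 and 17.4 and 15.5 in siControl, the highest of any region of the 10 genes in siChst7 replicate 1 and siControl replicate 2. The region 58.3 kb upstream (32179707 to 32180447) had 17.3 and 12.6 in siChst7 and 14.8 and 14.9 in siControl. In both, the siControl values fall between the siChst7 values. Ranks of these 2 regions were 2.22% to 11.6% in siChst7 and 3.96% to 6.31% in siControl.

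The other Bach2 regions in all 4 lists had lower folds. Folds 68.4 kb upstream were 9.39 and 8.83 in siChst7 and 5.56 and 7.10 in siControl. Those 63.4 kb upstream were 11.7 and 5.67 in siChst7 and 7.71 and 7.38 in siControl, and those 37.2 kb upstream were 7.96 and 7.57 in siChst7 and 9.66 and 6.83 in siControl. The region 63.8 kb inside had 7.12 and 8.52 in siChst7 and 11.3 and 8.29 in siControl. Groups overlapped in 3 of these 4 regions, and in that 68.4 kb upstream both siChst7 folds were above both siControl folds.

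A region 66.9 kb from the far end of Bach2 was in both siChst7 lists (9.81 and 8.23) and in siControl replicate 2 (9.48). The remaining 3 were each in a single list, with folds of 5.05 to 5.77. The listed RefSeq start of Bach2 lies 179 kb inside the gene as annotated, so the regions upstream of the gene lie far from it. Within the gene body but more than 100 kb from either end, 4 further regions were not counted. Of these, the region 11.5 kb from the listed start (32405296 to 32406318) was in all 4 lists, with folds of 13.7 and 11.9 in siChst7 and 8.31 and 7.18 in siControl. When regions went to the nearest listed start within 100 kb, Bach2 had 1 region in all 4 lists, which was this one; the 6 regions counted above lay beyond that distance.

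**Figure D4:**
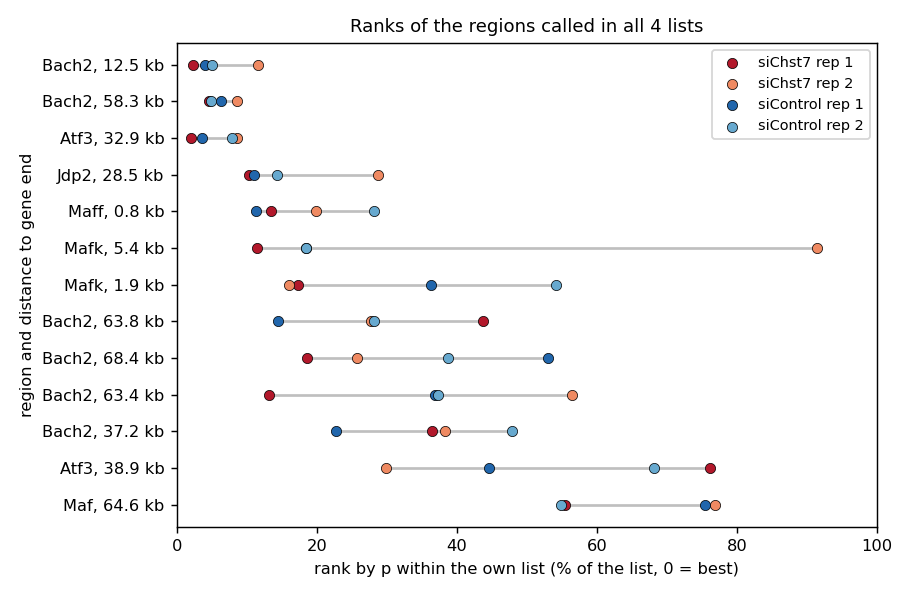
Rank by p-value within its own list (x axis, % of the list, 0 = best) for the 13 regions called in all 4 lists, sorted by median rank, with siChst7 in reds and siControl in blues. The Atf3 region 32.9 kb upstream and the Bach2 regions at 12.5 and 58.3 kb lie within 11.6% of the top of every list, and the Maf region lies beyond 54%.

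The number of peaks of the 10 genes differed between the siRNA groups by less than the spread between libraries. There were 27 and 17 peaks in siChst7 (mean 22 ± 7.07, SD, n = 2) and 18 and 22 in siControl (mean 20 ± 2.83, SD, n = 2). On the log2 scale, siChst7 exceeded siControl by 0.11 on average (two-sided exact permutation p = 1). With 4 libraries the exact permutation test cannot go below p = 0.333. Whole lists held 10163 and 4735 peaks in siChst7 and 6469 and 5827 in siControl. As a share of its list, the 10 genes took 0.266% and 0.359% in siChst7 (mean 0.312% ± 0.0660, SD, n = 2) and 0.278% and 0.378% in siControl (mean 0.328% ± 0.0702, SD, n = 2), a difference of −0.0156 percentage points (two-sided exact permutation p = 0.667). The lower share in each group was that of replicate 1, whose list was the longer. Without siChst7 replicate 1 the difference of the log2 numbers was −0.23, and without siControl replicate 1 it was −0.04.

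**Figure D5:**
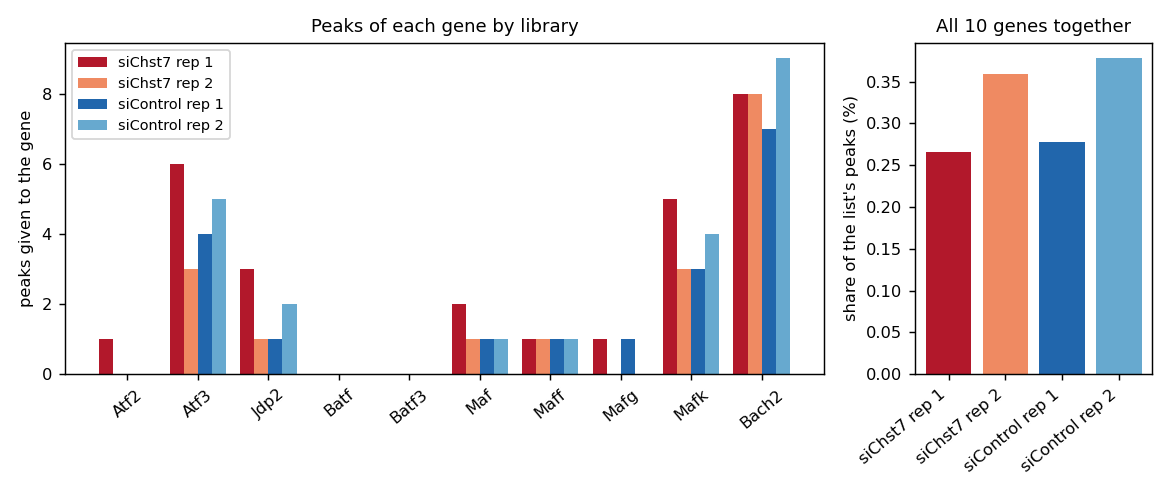
Peaks given to each gene in each library (left, bars from 0) and the share of each list's peaks that the 10 genes hold (right, %), siChst7 in reds and siControl in blues. Bach2, Atf3 and Mafk hold most peaks in every library, and the shares overlap between groups.

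Called only in siChst7, in both of its lists and neither siControl list, were 2 of the 31 regions, those of Atf3 and Mafk described above, against 3.74% of all regions near genes. Called only in siControl were 0 of 31, against 1.6% of all. Counted by gene, 2 of the 10 had a siChst7-only region, against 1.81% of all genes, and 0 of 10 a siControl-only region, against 0.795%. With lists of equal length, 0 regions were only in siChst7 and 1 was only in siControl. The shares over all regions were not counted at that length. Pairs that cross the groups also shared regions found in neither other list. For siChst7 replicate 1 with siControl replicate 2 these were 4 of 31 (12.9%), against 5.09% of all regions near genes. For siChst7 replicate 1 with siControl replicate 1 there was 1 of 31 (3.23%), against 6.56% of all.

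The regions lay mostly away from gene ends. Their median distance to a gene end was 32.9 kb, against 13.1 kb over all regions near genes, and 2 of 31 (6.45%) lay within 1 kb of an end, against 13.9%. Regions in all 4 lists had a median width of 1076 bp, against 928 bp over all such regions. Over all peaks of these common regions, median folds for the 10 genes were 10.6 and 8.52 in siChst7 and 10.1 and 7.24 in siControl. Over all peaks of common regions near genes, they were 10.6 and 7.68 in siChst7 and 8.90 and 8.05 in siControl. In siControl replicate 2, weaker second peaks of Bach2 and Mafk regions, with folds of 4.97 to 6.03, were counted beside the best peaks. None of these differences was tested, and Bach2 alone owns 10 of the 31 regions.

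Related gene lists give the setting, as counts of genes with a region in all 4 lists beside 8.32% of all genes. Of 15 other Atf, Maf, Bach and CNC genes, 3 had such a region: Atf6, a sensor of unfolded protein, Bach1, the haem-sensing relative of Bach2, and Nfe2l2, the antioxidant response factor that pairs with small MAFs. The Bach1 region, with a highest fold of 12.7, lay 0.835 kb from a gene end. Of 7 Jun and Fos genes, 4 had one, namely Jun, Fosb, Fosl1 and Fosl2.

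Of 18 Creb, C/EBP and other bZIP genes, 6 had a region in all 4 lists, with 4 regions for Creb3l2, 3 for Cebpb and 2 each for Creb3l1, Hlf and Nfil3. Of 16 antioxidant genes that CNC, MAF and BACH proteins are known to control, 2 had one. These were Abcc1, an export pump, and Srxn1, which repairs peroxiredoxins and whose region stood 0.0545 kb from a gene end. Hmox1, a known BACH target singled out here after its values were seen, had 1 region, which both lists of neither group shared.

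Of 10 stress response genes downstream of Atf4 and Atf3, 2 had a region in all 4 lists, Chac1, which degrades glutathione, and the amino acid transporter gene Slc7a5. Of 11 stress kinase genes, 2 had one: Map2k3, an activator of p38, with 2 regions, and Map3k5.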

How the data were processed

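Per the submitters' processing notes, Bowtie2, MACS3 and mm10 were used; versions, settings and any control library are not given in the sources used here. Each deposited narrowPeak list covers 1 library, matched by its peak names, and holds 0-based positions, an integer score, a fold enrichment (a ratio) and −log10 p-values and q-values, all as the authors deposited them. The lists end near a −log10 q of 2.0. The score was not used. Coordinates here are 1-based. Read depth per library is unknown; the labels state 30 M reads. The number of libraries limits the precision.

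Overlapping peaks (at least 1 bp) were joined, and the median summit was given to the nearest end of a protein-coding gene within 100 kb (RefSeq, GRCm38.p6). All 10 genes matched; 9 had promoter sequences. Motifs at summits were not searched, for want of a genome sequence used here. Groups were compared by exact permutation of 4 libraries; no count model can be fitted to peak lists. The joining was checked on simulated peaks. The genes, lists and tests were chosen with earlier results of these data known. Every region of the 10 genes is described; of each related list, up to 4 genes with most regions in all 4 libraries are named (Nfil3, tied with these, was added after its values were seen). The settings varied were the overlap (50% reciprocal, or windows of 100 bp around summits), the peaks kept (q up to 0.001, fold from 5 upward, or lists cut to equal length), the distance (20 kb, or gene bodies with 5 kb) and the libraries (each left out, or a replicate block). Computation used pandas 2.3.3, SciPy 1.17.1, NumPy 2.4.6, Matplotlib 3.10.9 and Python 3.11.15.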

Additional observations from a re-analysis of the deposited data

How the results depend on the processing

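Reported were 16, 14 and 13 regions of the 10 genes in both siChst7 libraries, both siControl libraries and all 4, with 2 only in siChst7 and 0 only in siControl, and 6 genes with a region in each group. Within 20 kb the first 3 counts were 6, 5 and 4, and 3 genes had a region in siControl. With gene bodies and 5 kb they were 9, 8 and 6, with 1 only in siChst7 and 3 genes in each group. By nearest listed start they were 10, 9 and 7, and without Bach2 9, 8 and 7; both settings were chosen after seeing the data. With 50% reciprocal overlap, 8 regions were in all 4, and 1 was only in siChst7 and 1 only in siControl. Summit windows gave 1 and 1, a fold of at least 5 gave 1 only in siChst7, and equal list length gave 0 and 1. Shares over all regions were not counted at these settings. The difference in log2 numbers of peaks, siChst7 minus siControl, was −0.0153 with gene bodies; the difference in share was 0.0167 within 20 kb and 0 at equal list length. The cause of these moves was not tested, beyond fewer regions being counted.

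Leaving out 1 library, where a region needs fewer lists, gave 16 to 27 regions in siChst7, 14 to 19 in siControl and 12 to 14 in all, 2 to 7 only in siChst7 and 0 to 3 only in siControl, with 6 to 8 and 6 to 7 genes. The difference in log2 numbers ran from −0.23 to 0.44 and that in share from −0.0652 to 0.0341. With a replicate block the differences were 0.11 (exact sign-change p = 1) and −0.0156 (p = 0.5, the smallest possible). The numbers do not pair the libraries in the labels, and the deviations of same-numbered libraries correlated at −0.0324 over 12655 regions. Counted by gene, the AP-1 site stood in promoters of 0% of the 9 genes, against 8.12% of all genes, the CRE in 11.1%, against 2.54%, and TGCTGA in 22.2%, against 20.5%. The motif search at summits was not run.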
